A study of Mus musculus with 6 samples.

Results

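The route that carries fatty acids from the capillary lumen into the muscle fibre was followed through 9 genes: Lpl, Gpihbp1, Angptl4, Vldlr, Cd36, Slc27a1, Slc27a4, Fabp3 and Fabp4. They were chosen by name, and every probe set that the platform annotation assigns to 1 of these genes alone was used, 23 probe sets among the 34945 that carry a single gene and 9 genes among 18193. Transcript signals were measured on Affymetrix arrays in quadriceps, a thigh muscle, of C57/BL6 male mice aged 8 weeks, 3 wild-type and 3 transgenic for ERRγ. ERRγ, encoded by Esrrg, is an orphan nuclear receptor of oxidative tissues, and its transgene, labelled hSkeletal Actin -ERRg, was under α-skeletal actin control, so that expression was directed to muscle fibres. The titles call the animals biological replicates, but founder line, housing and feeding state are not stated in them. All p-values rest on the spread between these animals, and those of limma also draw on the spread of other probe sets of like intensity.

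Muscle takes up fatty acids along a short chain of proteins. Lipoprotein lipase (Lpl), made by fibres and adipocytes, is carried across the endothelium and held in the capillary lumen by Gpihbp1, where it splits the triglyceride of passing lipoproteins. Angptl4 inactivates the lipase, and Vldlr, the very-low-density lipoprotein receptor, binds triglyceride-rich lipoproteins. Cd36 and the transport proteins Slc27a1 and Slc27a4 bring the freed fatty acids across endothelial and fibre membranes. Inside the cell they bind Fabp3 in fibres and Fabp4 in adipocytes and capillary endothelium.

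Upstream sequence is shown for Fabp3, the gene of the route with the largest rise by its brightest probe set, and for Vldlr, which fell. It is also shown for Cd36, the only gene with a nuclear receptor half-site among those for which a window was available. Each run is the 250 bases before the annotated start on the gene's own strand, from RefSeq on GRCm38.p6. Capitals mark the half-site AGGTCA and the GC box GGGCGG, on either strand, and the Fabp3 run holds neither.

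Fabp3, chr4:130308488-130308737, plus strand: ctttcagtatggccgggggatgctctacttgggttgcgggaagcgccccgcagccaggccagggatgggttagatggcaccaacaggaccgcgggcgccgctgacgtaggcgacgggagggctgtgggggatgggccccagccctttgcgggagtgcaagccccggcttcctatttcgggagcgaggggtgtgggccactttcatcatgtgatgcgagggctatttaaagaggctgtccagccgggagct

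Cd36, chr5:17835897-17836146, minus strand: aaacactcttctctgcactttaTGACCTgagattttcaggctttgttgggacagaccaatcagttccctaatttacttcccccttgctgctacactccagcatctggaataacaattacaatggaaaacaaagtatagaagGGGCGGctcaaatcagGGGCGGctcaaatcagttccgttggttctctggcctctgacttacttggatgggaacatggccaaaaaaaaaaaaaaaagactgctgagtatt

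Vldlr, chr19:27216770-27217019, plus strand, the second of 2 annotated starts: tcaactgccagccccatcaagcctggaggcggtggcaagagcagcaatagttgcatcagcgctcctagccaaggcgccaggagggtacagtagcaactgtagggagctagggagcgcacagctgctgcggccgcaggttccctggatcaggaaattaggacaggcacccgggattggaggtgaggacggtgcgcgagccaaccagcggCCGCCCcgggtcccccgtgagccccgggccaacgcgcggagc

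The RefSeq table held windows for 5 of the 9 genes, 8 windows in all, each from 250 bases before to 50 after a start. It held none for Lpl, Gpihbp1, Fabp4 and Angptl4, so these genes were not searched. The oestrogen-related receptor element TNAAGGTCA was in 0 of the 8 windows and in 1.28% of all 32851 windows. The half-site AGGTCA, which is part of that element, was in 1 of the 8, that of Cd36, on the opposite strand from base -228 counted from the start, and in 16.3% of all windows. The direct repeat of this half-site, AGGTCA at both ends with 1 base of any kind between them, was in 0 of the 8 and in 0.0396% of all. The GC box was in 5 of the 8, those of Cd36, Slc27a4, Vldlr and 2 of the 3 of Slc27a1, and in 35.7% of all. Both strands were searched, a match is only a match of letters, and no match says only that the letters are not in these windows.

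By the brightest probe set of each gene, the lipase, its capillary anchor and the heart-type binding protein were higher in transgenic muscle and the lipoprotein receptor was lower. Lpl, Gpihbp1 and Fabp3 rose, Vldlr fell, and Cd36, Slc27a1, Fabp4, Slc27a4 and Angptl4 did not pass the test (limma on log2(signal + 16), Benjamini-Hochberg adjusted p under 0.05 over all probe sets tested). Over all 12529 genes tested, 7.65% rose and 5.75% fell. The arrays of the genotypes did not overlap for the same 4 genes, 3 with transgenic above and 1 with transgenic below, against 18.6% and 14.7% of all genes. Of the 23 probe sets, 22 were bright enough on average to be tested: 8 rose, 6 fell and 8 did not pass, where over all tested probe sets 6.38% rose and 5.16% fell. The 6 that fell are all of Vldlr. The median log2 difference of the 9 genes was 0.68, against 0.033 over all genes. Without wild-type 3, an array that stands apart in fat cell genes as described further on, 5 genes rose, Cd36 and Slc27a1 being added, Vldlr fell, and the median was 1.06. In that fit 1787 of all genes were called in either direction, where 1679 were with all 6 arrays. Every other single removal lowered this number, to between 943 and 1257, and added no member gene. Lpl dropped out once either of wild-type 1 and 2, or either of transgenic 1 and 2, was taken away. Only Gpihbp1 and Fabp3 then rose. With transgenic 3 taken away all 3 risers stayed, and Vldlr fell in each of these fits.

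All 6 arrays had a mean signal of 200 after the highest and lowest 2% of probe sets were left out, and their number, 3 per genotype, limits the precision. The brightest Esrrg probe set gave 71.6, 61 and 24.1 in wild-type muscle, against 14427.2, 13807.7 and 12697 in transgenic muscle, as the labels have it, while 2 dimmer probe sets did not pass (0.40 and 0.35 on the log2 scale, limma adjusted p = 0.284 and 0.443). Of 9 skeletal muscle fibre genes checked, including Acta1 and Ckm, the lowest summed signal was 134001, on wild-type 3. The other arrays ran from 145980 to 186002. Skeletal muscle was thus borne out on every array, though these genes do not show which muscle it was.

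**Figure D1:**
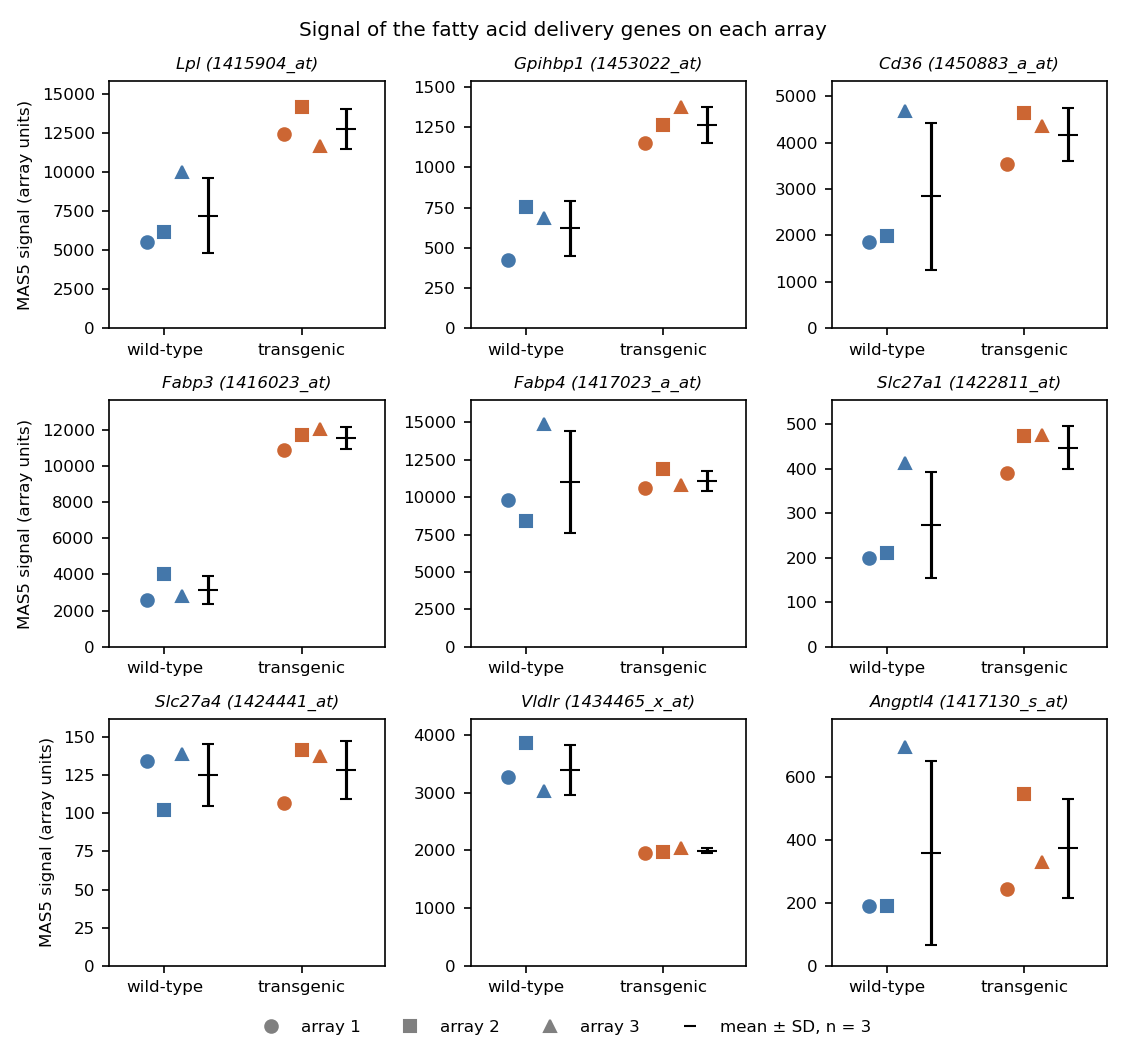
MAS5 signal (array units, linear axis from 0) of the brightest probe set of each gene on the 3 wild-type (blue) and 3 transgenic (orange) arrays, with symbols for array number and black bars for mean ± SD (n = 3). Transgenic arrays lie above all wild-type arrays for Lpl, Gpihbp1 and Fabp3 and below them for Vldlr, and wild-type 3 is the highest wild-type array for 6 of the 9 genes.

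Lpl, the enzyme at the entry of the route, was higher on all transgenic arrays. Its brightest probe set (1415904_at) gave 5547.3, 6146.5 and 9999 in wild-type 1 to 3, against 12460, 14190 and 11660.9 in transgenic 1 to 3. Wild-type 3 lay nearest to the transgenic arrays, and the genotypes did not overlap. The mean went from 7231 ± 2416 to 12770 ± 1293 (SD, n = 3 each), a rise of 0.86 on the log2(signal + 16) scale (SE 0.19, 95% interval 0.45 to 1.28, limma adjusted p = 0.0139), or 1.82-fold. The dimmer probe set (1431056_a_at) gave 1993.8, 2000.9 and 4297.2 against 5074.5, 5641.1 and 4815.2 and rose by 0.997 (SE 0.24, limma adjusted p = 0.0248). With single arrays removed, the brighter probe set missed the threshold on removal of wild-type 1, of wild-type 2, of transgenic 1 and of transgenic 2 (limma adjusted p = 0.0538, 0.0564, 0.0519 and 0.0602), and the difference was 1.12 (limma adjusted p = 0.000112) without wild-type 3. It did not pass after quantile normalization (limma adjusted p = 0.0541) or without the intensity trend (limma adjusted p = 0.0808), either. The dimmer one passed, of the 6 removals, only without wild-type 3. In whole muscle, more RNA per cell and more cells of a type cannot be told apart, here and for the genes that follow.

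Gpihbp1, which shuttles the lipase to the luminal face of capillaries, about doubled by its one probe set. Its signals were 424, 751.3 and 685.4 in wild-type muscle, against 1152.2, 1262 and 1373.5 in transgenic muscle. Wild-type 1 was the lowest array and the lowest transgenic array lay well above the highest wild-type one. The rise was 1.04 (SE 0.19, 95% interval 0.63 to 1.46, limma adjusted p = 0.00516), or 2.06-fold, and it passed under all 18 alternatives run, with differences from 0.80 to 1.20.

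Angptl4, the inhibitor of the lipase, did not pass the test and had the widest interval of the 9 genes. The brighter probe set (1417130_s_at) gave 188.2, 188.1 and 693.1 in wild-type muscle, against 242, 545.6 and 329 in transgenic muscle. The highest and the lowest signal were both from wild-type arrays, and the genotypes overlapped. The log2 difference was 0.25 (95% interval -0.71 to 1.22, limma adjusted p = 0.766), an interval that holds both a fall and a doubling. Without wild-type 3 it was 0.85 (limma adjusted p = 0.0669), and without wild-type 1, wild-type 2 or transgenic 2 it was -0.046, -0.047 and -0.051. The second probe set had no signal above 10.6 and was below the level for testing. The only tested one thus carries the suffix s, which marks probes that can also match other transcripts.

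Vldlr, the receptor that docks triglyceride-rich lipoproteins, was the gene of the route that fell, and it did so at each of its 6 probe sets. The brightest (1434465_x_at) gave 3274.7, 3862.1 and 3033.6 in wild-type muscle, against 1958.1, 1972.1 and 2039 in transgenic muscle. The transgenic arrays lay within a narrow band below all wild-type arrays. The mean went from 3390 ± 426.1 to 1990 ± 43.2 (SD, n = 3 each) and fell by 0.76 on the log2 scale (SE 0.11, limma adjusted p = 0.00143). The suffixes x and s mark probes that can also match other transcripts, and the 4 probe sets without them fell too. The second brightest, 1438258_at, gave 2049.1, 2185.5 and 1840.8 against 1379.8, 1194.8 and 1348.2. The probe set 1435893_at gave 2010.7, 2385.7 and 1726.8 against 1166.6, 871.7 and 1063.4, the largest of the 6 falls (log2 difference -0.97, SE 0.14, limma adjusted p = 0.00184). Over the 6, the wild-type mean was 1.55 to 1.97 times the transgenic mean, the genotypes did not overlap at any, and wild-type 3 was the lowest wild-type array at all 6. The probe sets read 1 gene in the same RNA and are not replicates of each other. The dimmest, 1451156_s_at (limma adjusted p = 0.0236), missed the threshold on removal of wild-type 1, of wild-type 2 and of transgenic 2 (limma adjusted p = 0.0719, 0.0993 and 0.0680), without the filter on low signal (0.0507) and without the intensity trend (0.0691), while the brightest passed under all 18 alternatives run, with differences from -0.91 to -0.66.

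Cd36, the fatty acid translocase of fibre and endothelial membranes, gave unequal values at its 3 probe sets. The brightest (1450883_a_at) gave 1866.2, 1988.4 and 4673.6 in wild-type muscle, against 3528.2, 4635.8 and 4351.6 in transgenic muscle. Wild-type 3 was above every transgenic array, and the probe set did not pass (log2 difference 0.68, SE 0.28, limma adjusted p = 0.165). The next (1423166_at) gave 1074.7, 1204.2 and 2494.1 against 2754.8, 2975.4 and 2845.1. These do not overlap, and it rose by 0.94 (SE 0.25, limma adjusted p = 0.0347). The dimmest (1450884_at) gave 400.3, 500.1 and 733.6 against 1966.6, 1882.3 and 2178.5, with the genotypes far apart. It rose by 1.89 (SE 0.18, limma adjusted p = 0.000155), or 3.72-fold, and by 1.70 to 2.12 with any single array removed.

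The probe sets of Cd36 therefore changed by unequal amounts. The signal of the dimmest over that of the brightest was 0.215, 0.252 and 0.157 in wild-type muscle, against 0.557, 0.406 and 0.501 in transgenic muscle, without overlap, a ratio chosen after its values were seen and given with no test. The files do not show which part of the transcript each probe set reads. Without wild-type 3 the brightest rose by 1.10 (limma adjusted p = 0.000365). With its probe sets averaged on all 6 arrays, Cd36 rose by 1.17 (limma adjusted p = 0.0123). Without the filter on low signal the dimmer Lpl, the middle Cd36 and the dimmer Slc27a1 probe sets did not pass either (limma adjusted p = 0.0582, 0.0732 and 0.0886). The middle Cd36 probe set passed, of the 6 single removals, only without wild-type 3 (limma adjusted p = 3.54e-05), and its adjusted p reached 0.125 without wild-type 1.

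Of the fatty acid transport proteins, Slc27a1, the main form of muscle and fat, had higher transgenic means, and Slc27a4 did not differ beyond its spread. Slc27a1 gave 199.2, 211.2 and 412 in wild-type muscle, against 391.6, 474.3 and 476.4 in transgenic muscle at its brighter probe set (1422811_at). Wild-type 3 overlapped the transgenic arrays, and the log2 difference of 0.74 (SE 0.23) did not pass (limma adjusted p = 0.0673). Its other probe set (1435658_at) gave 154.4, 205.6 and 377.2 against 444.7, 440.3 and 419.1, with no overlap, and rose by 0.87 (SE 0.25, limma adjusted p = 0.0465), a call that held, of the 6 single removals, only without wild-type 3 (1.21, limma adjusted p = 0.000774). Without that array the brighter one rose too, by 1.06 (limma adjusted p = 0.00119). Slc27a4 gave 134.7, 101.9 and 138.8 against 106.7, 141.7 and 137.4. These fully overlap, and the log2 difference of 0.037 has a 95% interval of -0.37 to 0.44 (limma adjusted p = 0.926), which as a ratio runs from 0.776 to 1.36. Its sign turned after median scaling (-0.098) and quantile normalization (-0.037).

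The binding proteins of the cytosol did not move together. Fabp3, the form of heart and oxidative muscle fibres, gave 2597.8, 4023.3 and 2837.1 in wild-type muscle, against 10865.1, 11715.9 and 12013.9 in transgenic muscle (1416023_at). The lowest transgenic array lay far above the highest wild-type one. The rise was 1.89 (SE 0.15, 95% interval 1.57 to 2.21, limma adjusted p = 3.78e-05), or 3.71-fold, and it passed under all 18 alternatives run. The dim second probe set (1444844_at) gave 79.9, 73.8 and 83.8 against 122.7, 186.2 and 206 and rose by 0.95 (SE 0.20, limma adjusted p = 0.0126). The added 16 units understate the change of a signal this low, and it did not pass without transgenic 2 or transgenic 3 (limma adjusted p = 0.0528 and 0.0540).

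Fabp4, the form of adipocytes and capillary endothelium, overlapped between genotypes at all 4 probe sets and passed at none. The brightest (1417023_a_at) gave 9780.6, 8403.1 and 14887.8 in wild-type muscle, against 10578.8, 11866.7 and 10822.7 in transgenic muscle. The highest and the lowest signal were again both wild-type. The log2 difference was 0.050, with a 95% interval of -0.33 to 0.44 (limma adjusted p = 0.891), and the 3 dimmer probe sets gave -0.31, -0.024 and -0.0019, with wider intervals. The sign at the brightest turned after median scaling (-0.10) and quantile normalization (-0.090). Wild-type 3 stood at 965.4 for 1424155_at, where the other arrays ran from 264.4 to 500.3. Without it the 4 differences were 0.29, 0.081, 0.55 and 0.46, brightest first, and none passed (limma adjusted p = 0.0873, 0.830, 0.0505 and 0.237).

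**Figure D2:**
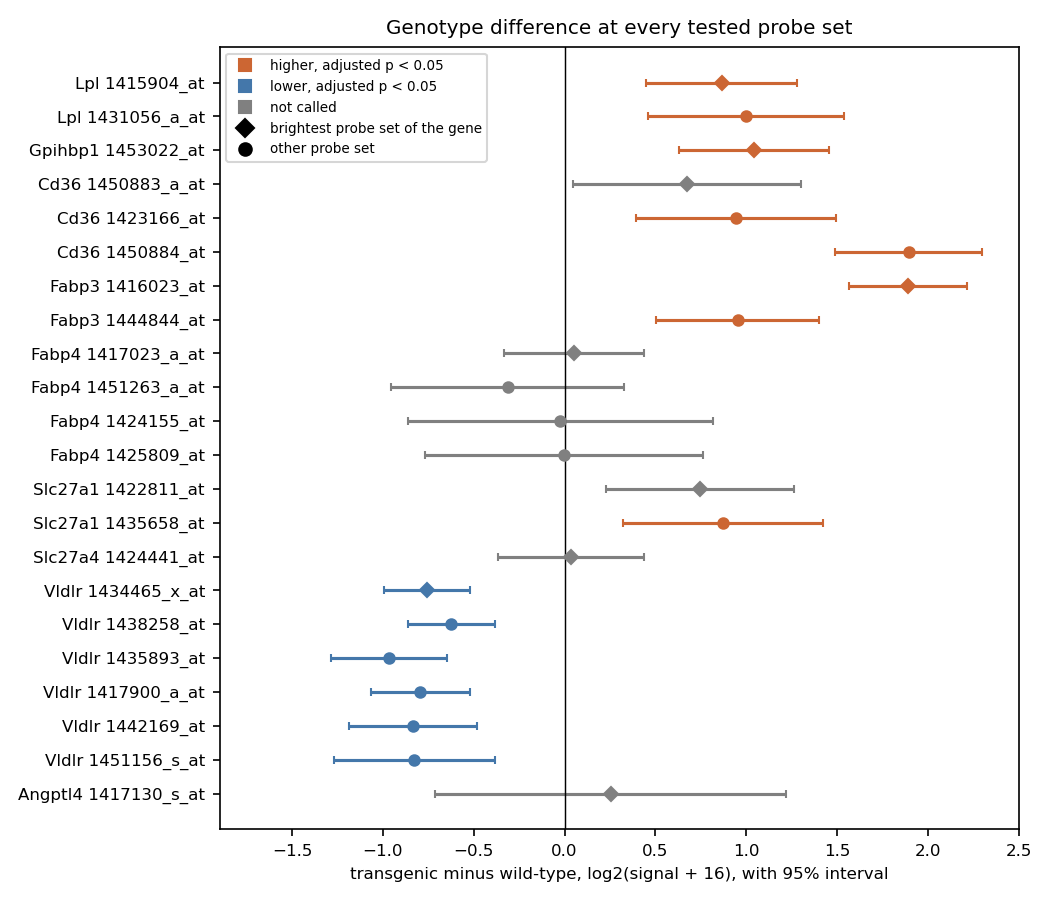
Genotype difference (transgenic minus wild-type, log2(signal + 16)) with its 95% interval at each of the 22 tested probe sets, with diamonds for the brightest probe set of a gene, circles for the others, and colour for the call at a limma adjusted p under 0.05. The 6 Vldlr probe sets lie between -0.97 and -0.62, those of Lpl, Gpihbp1 and Fabp3 between 0.86 and 1.89, and the 3 of Cd36 are spread from 0.68 to 1.89.

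Fat cell genes marked out wild-type 3. The 7 adipocyte markers with a tested probe set summed to 20084 on that array, against 5981 and 4897 on the other wild-type arrays and 4881, 9566 and 3612 on transgenic 1 to 3. On the log2 scale their mean on wild-type 3 was 1.94 above the mean of wild-type 1 and 2, and on transgenic 2 it was 1.02 above. By genotype, 1 of the 7 rose and 6 missed the threshold, and the median log2 difference was -0.73 (-0.15 without wild-type 3). The riser was Adig, a small adipocyte protein (1.92, SE 0.42, limma adjusted p = 0.0144), which went against the others. Those 6 had negative differences, the lowest being that of Pck1, which makes glycerol backbones in fat (-0.94, limma adjusted p = 0.402). No marker was at 0 on any array.

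The genes of the route differed in how far they moved with this array. Wild-type 3 stood above the mean of wild-type 1 and 2 by 1.80 for Angptl4, 1.27 for Cd36, 0.95 for Slc27a1, 0.77 for Lpl and 0.71 for Fabp4. It stood 0.27 above for Gpihbp1, 0.22 above for Slc27a4, 0.19 below for Fabp3 and 0.23 below for Vldlr. Transgenic 2, the transgenic array with the most adipocyte signal, was also the highest transgenic array for Angptl4, Lpl, Cd36, Fabp4 and Slc27a4 by their brightest probe sets. The 3 dimmer Fabp4 probe sets and the dimmest of Cd36 were instead highest on transgenic 3, the array with the least adipocyte signal. Lpl, Gpihbp1, Fabp3 and Vldlr passed with and without wild-type 3. Without it the difference was farther from 0 for 8 of the 9 genes, from 1.04 to 1.13 for Gpihbp1 and from -0.76 to -0.83 for Vldlr, and for Fabp3 it went from 1.89 to 1.83.

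The capillary-facing genes were also measured within each array against the mean of the 7 adipocyte markers. On wild-type 3 that mean was raised by more than any of these genes. By the subtraction alone, this array thus became the lowest wild-type one for each of them. Set against wild-type 1 and 2, that mean was 0.16, -0.16 and 1.94 on wild-type 1 to 3. On transgenic 1 to 3 it was -0.0092, 1.02 and -0.27, lower on average, which adds to each difference that follows. Lpl stood 3.63, 4.09 and 2.69 above that mean in wild-type muscle, against 4.96, 4.11 and 5.13 in transgenic muscle. The difference of 1.26 had no overlap, and neither had that of Cd36, 1.07 (exact two-sided permutation test p = 0.1 and adjusted p = 0.2 for both, over 8 such values). Gpihbp1 differed by 1.44 and Fabp4 by 0.45, both with overlap (exact two-sided permutation test p = 0.2 and 0.5). Without wild-type 3 the differences were 0.87 for Lpl, 0.85 for Cd36, 0.89 for Gpihbp1 and 0.041 for Fabp4. The share of adipocyte RNA in each value was not tested.

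**Figure D3:**
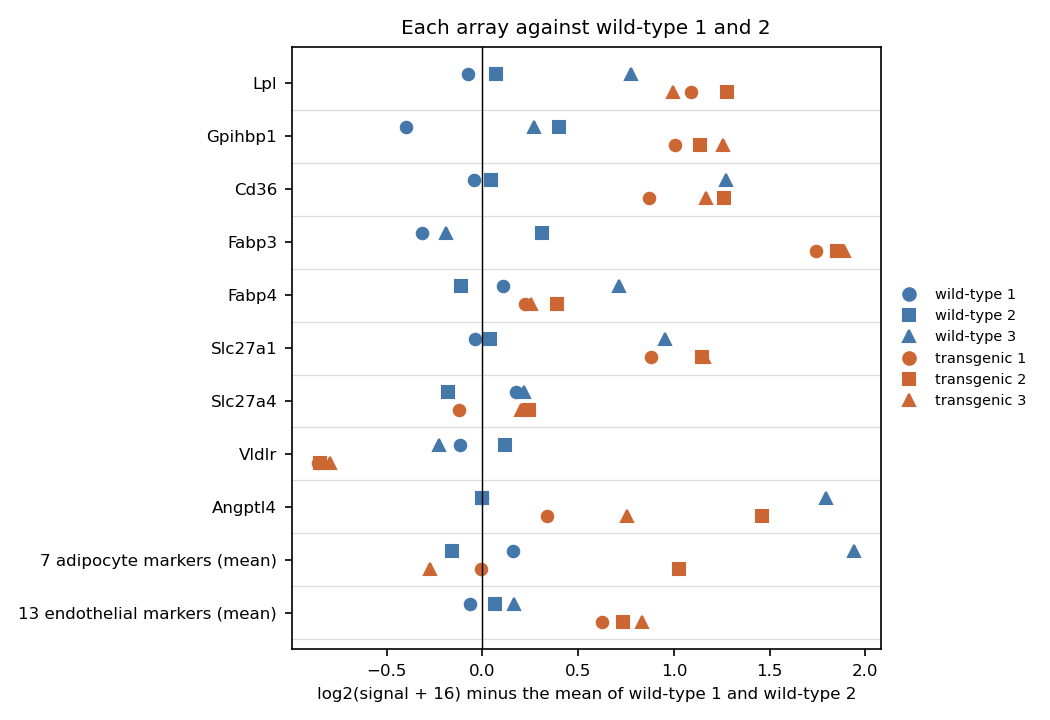
Each array's log2(signal + 16) minus the mean of wild-type 1 and wild-type 2, for the brightest probe set of each gene and for the means of 7 adipocyte and 13 endothelial markers, with blue for wild-type, orange for transgenic and symbols for array number. Wild-type 3 is displaced upward for the adipocyte markers (1.94), Angptl4 (1.80) and Cd36 (1.27) but not for Fabp3 (-0.19) or Vldlr (-0.23).

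**Figure D4:**
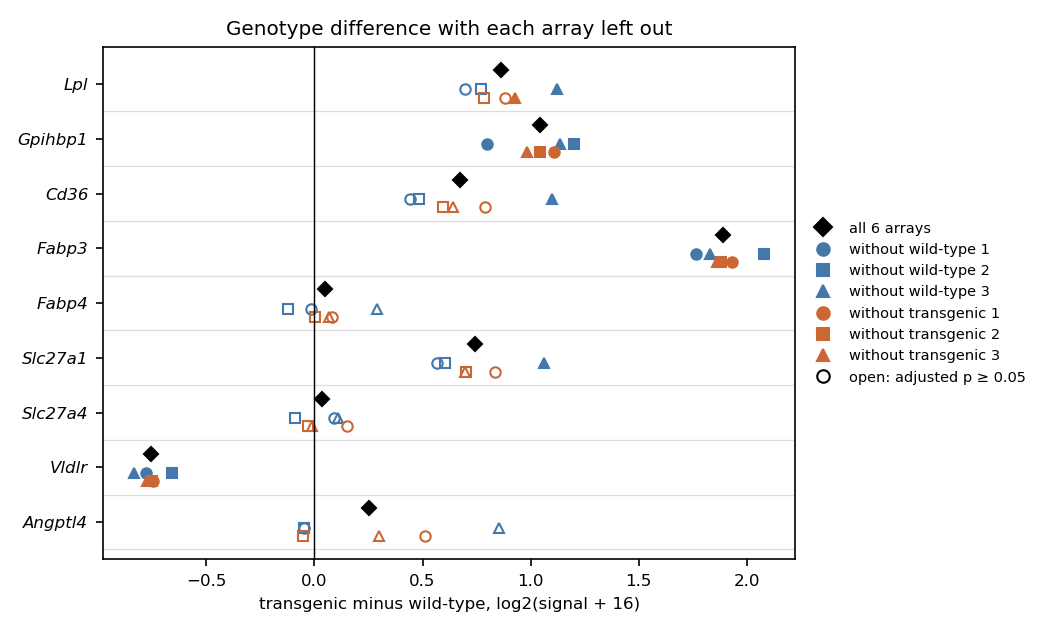
Genotype difference of each gene's brightest probe set on the log2(signal + 16) scale with all 6 arrays (black) and with each array left out, filled where the limma adjusted p is under 0.05 and open where it is not. Gpihbp1, Fabp3 and Vldlr stay filled throughout, while Cd36 and Slc27a1 are filled only without wild-type 3.

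Most endothelial markers were higher in transgenic muscle, as was Gpihbp1. Fabp4 and the brightest Cd36 probe set did not pass, while the dimmer Cd36 probe sets rose by 0.94 and 1.89. Of 13 endothelial markers tested, 9 rose and 4 missed the threshold (median log2 difference 0.68), where 7.65% of all genes rose. Their summed signal ran from 3880 to 4736 in wild-type and from 6855 to 7776 in transgenic arrays. The differences went from 0.31 for Tek, an angiopoietin receptor that did not pass, to 1.32 for Esam, a junctional adhesion molecule. Measured against the mean of these markers within each array, Gpihbp1 was 0.60, 1.27 and 1.04 above it in wild-type muscle, against 1.32, 1.34 and 1.36 in transgenic muscle. The transgenic values are higher by 0.37 and do not overlap the wild-type ones, by a margin small beside the wild-type SD of 0.34 and with a difference of 0.18 without wild-type 1 (exact two-sided permutation test p = 0.1, the smallest that 3 arrays against 3 allow, adjusted p = 0.2 over the same 8 values).

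Fabp4 was lower against the endothelial mean, where against the adipocyte mean it had a positive difference. It lay 5.08, 4.73 and 5.45 above the endothelial mean in wild-type muscle, against 4.502, 4.56 and 4.33 in transgenic muscle, a difference of -0.62 (exact two-sided permutation test p = 0.1, adjusted p = 0.2). For Cd36 and Lpl by their brightest probe sets the differences were 0.000905 and 0.19 and overlapped (exact two-sided permutation test p = 1 and 0.4). Without wild-type 3 that of Cd36 was 0.37, and with probe sets averaged it was 0.49 (exact two-sided permutation test p = 0.4). The share of endothelial RNA in each value was not tested. Among 7 macrophage markers only Lyz2 fell and 6 missed the threshold, the differences running from -0.63 for Cd163 to -0.12 for Csf1r, and their summed signal was 3339 to 3865 in wild-type and 2494 to 3066 in transgenic arrays.

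Genes of the route were also compared in pairs within each array. The log2 signal of Fabp3 minus that of Fabp4 was -1.91, -1.06 and -2.39 in wild-type muscle, against 0.038, -0.018 and 0.15 in transgenic muscle. It changed by 1.84, with no overlap. Lpl minus Vldlr was 0.76, 0.67 and 1.72 set against 2.66, 2.84 and 2.51, a change of 1.62. Fabp3 minus Lpl changed by 1.03 and Slc27a1 minus Slc27a4 by 0.71, each without overlap. With probe sets averaged, Fabp3 minus Lpl changed by 0.49 (exact two-sided permutation test p = 0.2). Fabp3 minus Cd36 changed by 1.22 with the brightest Cd36 probe set, and by 0.25 when probe sets were averaged. Without wild-type 3 it changed by 0.73. Lpl minus Gpihbp1 changed by -0.18 and Lpl minus Angptl4 by 0.61, both within the spread between arrays. Of the 7 pairs, the 5 without overlap each had an exact two-sided permutation p = 0.1, the smallest possible, and adjusted p = 0.14. None passed, and with 3 arrays against 3 none could have, so the test cannot decide whether the changes were unequal.

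The other genes of the route, in 4 lists by role, were read from the same fit, each by its brightest probe set. Over all genes tested, 7.65% rose and 5.75% fell. Around lipoprotein lipase itself (its maturation, apolipoprotein partners and heparan sulphate carriers), 1 of 11 tested genes fell, 0 rose and the others missed the threshold (median log2 difference -0.026). The gene that fell was Gpc1, a cell-surface heparan sulphate proteoglycan, from 2075.4, 2248.2 and 1637.5 to 1287, 1170 and 1428.2 (log2 difference -0.60, SE 0.13, limma adjusted p = 0.0153), and 0 fell on removal of wild-type 1, of wild-type 2, of transgenic 1 or of transgenic 2. Among 4 lipoprotein receptors and their chaperones tested, 1 rose and 1 fell. Scarb1, the scavenger receptor for high-density lipoprotein, gave 376.8, 374.2 and 380.1 against 553.9, 647.6 and 679 and rose by 0.70 (SE 0.12, limma adjusted p = 0.00388). Lrp1, a large endocytic receptor, fell by 0.47 at the edge of the threshold (limma adjusted p = 0.0488), and 0 of this list fell with any single array removed.

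Of 8 other fatty acid transporters, binding proteins and caveolar proteins tested, 1 rose, 0 fell and the other 7 missed the threshold (median 0.028). The riser was Got2, mitochondrial aspartate aminotransferase, also described as a fatty acid binding protein of the plasma membrane, at 4637.7, 5127 and 3912.2 against 9318.7, 9352.1 and 9085.8 (log2 difference 1.03, SE 0.11, limma adjusted p = 0.000238). Without wild-type 3, 4 rose and 1 fell, and the median was 0.41. Named after their values were seen, these are Got2, the caveolins Cav1 (0.81) and Cav2 (1.003), the acyl-CoA binding protein Dbi (0.38), and Cav3, the muscle caveolin, which fell by 0.67. On wild-type 3 this list stood a median of 0.86 above wild-type 1 and 2.

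The regulators held the largest number of risers among the 4 lists. Of 14 tested, 8 rose and 1 fell, where 7.65% of all genes rose and 5.75% fell. Their median log2 difference was 0.71 against 0.033 over all genes. Ppara, the fatty acid-activated nuclear receptor of oxidative tissues, gave 100.4, 163.1 and 329.7 against 420.2, 555.6 and 473.9, with no overlap (log2 difference 1.36, SE 0.31, limma adjusted p = 0.0185). Vegfb, a growth factor linked to endothelial fatty acid uptake, gave 841.1, 1005 and 777.6 against 2254.6, 1646.8 and 2239.7 and rose by 1.21 (SE 0.15, limma adjusted p = 0.000599). The coactivator Ppargc1b gave 445.1, 477.4 and 495.2 against 1170.4, 896.4 and 751.8 and rose by 0.95 (SE 0.15, limma adjusted p = 0.00305). Rxra, the shared partner of these receptors and the 1 that fell, named after its values were seen, fell by 0.52 (limma adjusted p = 0.0424). The other 5 that rose, Flt1, Nrp1, Meox2, Tcf15 and Aplnr, had differences from 0.69 to 0.88 and are known from endothelium, whose 13 markers had a median difference of 0.68. The share of endothelial RNA in the change of this list was not tested. The count of risers was 4 without wild-type 1 or wild-type 2, 3 without transgenic 2 or transgenic 3, 4 after scaling to a common median and 3 without the intensity trend, and 7 without wild-type 3. On removal of any single array other than wild-type 3, 0 of the list fell.

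**Figure D5:**
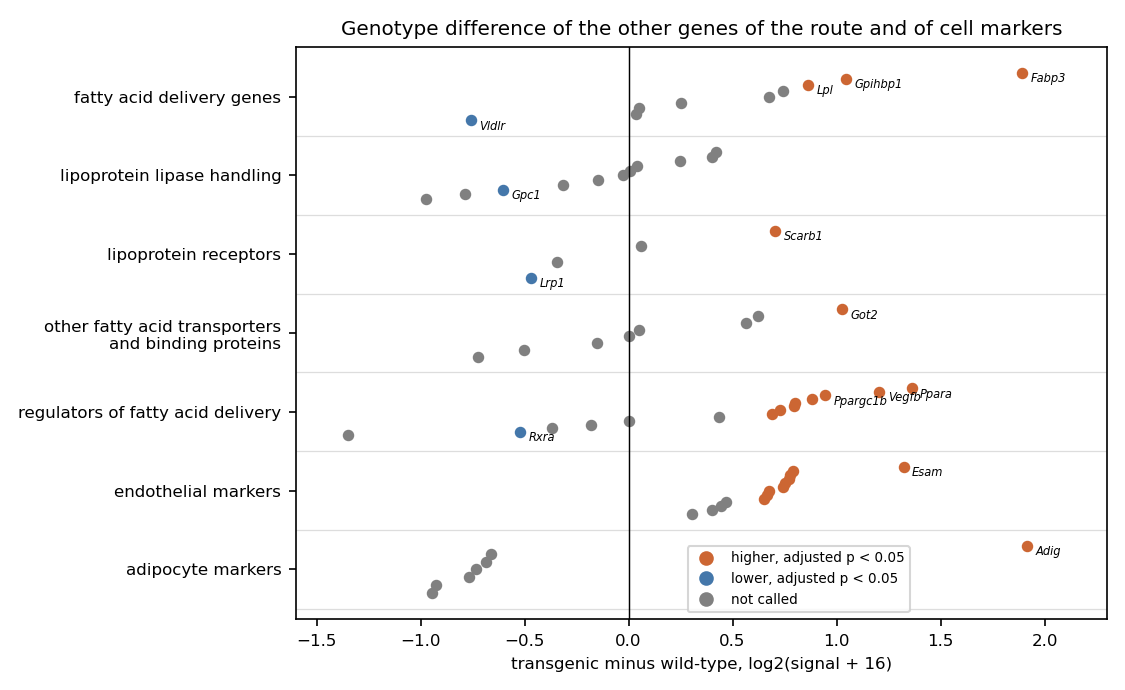
Genotype difference (log2(signal + 16), transgenic minus wild-type) of every tested gene in the 9-gene route, in 4 lists of other genes of the route and in endothelial and adipocyte markers, 1 point per gene by its brightest probe set, coloured by the call. Of 14 regulators 8 lie to the right as called risers, as do 9 of 13 endothelial markers, where 7.65% of all genes rose. The median of the lipoprotein lipase list is -0.026.

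For the 4 called genes, the nearest profiles over the 6 arrays were found by the root mean square difference of mean-centred log2(signal + 16) values among 12520 other genes. Nearest to Lpl were Echs1 and Mcee, mitochondrial enzymes of fatty acid and methylmalonyl-CoA metabolism, at 0.072 and 0.074. Nearest to Gpihbp1 were Mcf2l (0.074) and Ankrd29 (0.11), nearest to Fabp3 were Evc (0.048) and Atp1b1 (0.10), and nearest to Vldlr were Axin1 (0.055) and Rhobtb2 (0.070). These are small beside the SD of the genes themselves over the 6 arrays, 0.56 for Lpl, 0.64 for Gpihbp1, 1.06 for Fabp3 and 0.43 for Vldlr. With so many genes and 6 arrays, close profiles arise readily, and the distances are a description only.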

How the data were processed

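The authors deposited signal intensity values, linear and made with MAS5 per the submitters' processing notes, its version and settings not given in the sources used here. Each deposited array has a 2% trimmed mean of 200. From them log2(signal + 16) was computed, with no further normalization. Of 45101 probe sets, 64 controls were left out and those with a mean signal over the 6 arrays above the 40th percentile, 37.8, were tested (26995). By the platform annotation 34945 probe sets name 1 gene, 932 more than that and 9160 none; genes were named from the first kind. The test was limma 3.58.1 under R 4.3.3 (lmFit, eBayes with an intensity trend, two-sided, Benjamini-Hochberg over all tested probe sets, threshold 0.05). A gene was represented by its brightest single-gene probe set. The script was tested on simulated data. Plots used matplotlib 3.10.9 in Python 3.11.15.

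The genes, lists and tests were chosen with earlier results of these data known. Named genes are the 9 members, Esrrg, up to 3 called genes of each list by size, the 2 nearest profiles of each called member, and the extreme markers. Named after their values were seen are Rxra, the other regulators and the macrophage marker that passed, and the transporters called without wild-type 3; Acta1 and Ckm are named as fibre markers. Some list genes were not analysed here. Alternatives changed, one at a time, the constant, the filter, the scaling, the trend, the weighting of arrays, the block, the choice of probe set and which arrays entered. Nothing in the labels says that equal replicate numbers pair animals.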

Additional observations from a re-analysis of the deposited data

How the results depend on the processing

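Of 162 member values under the alternatives, 136 kept direction and side of the threshold, 6 lost a call (all Lpl), 7 gained one (Cd36 and Slc27a1) and 13 changed sign, each of them uncalled. Of 221 values at the members' other probe sets, 175 kept both, 35 lost a call and 11 changed sign. The sign changes at the brightest probe sets were of Fabp4 (-0.10 after median scaling, -0.090 after quantile normalization, -0.072 with probe sets averaged, and -0.12 to 0.29 with single arrays removed), Slc27a4 (-0.098 and -0.037 after these scalings, -0.088 to 0.15 with single arrays removed) and Angptl4 (-0.051 to 0.85 with single arrays removed). At dimmer Fabp4 probe sets, 1425809_at gave 0.0035 with 1 unit added, 0.15 with array weights, 0.27 without wild-type 3 and transgenic 3, and -0.34 to 0.46 with single arrays removed; 1424155_at gave 0.20, 0.43 and -0.35 to 0.55 under the last 3 of these; and 1451263_a_at gave -0.53 to 0.081 with single arrays removed. The median over all genes was 0.033 as deposited, -0.11 after median scaling and -0.0055 after quantile normalization.

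The count of probe sets called was 3115 and was 1584 without the intensity trend and 1705 to 3301 with single arrays removed; for genes, 1679, it was 823 and 943 to 1787. Members that rose numbered 3, 2 to 5 with single arrays removed, and 5 without wild-type 3 and transgenic 3. Around lipoprotein lipase 0 genes fell without the trend, and 0 to 1 with single arrays removed. Among receptors 0 fell with 1 unit added, without a filter, after quantile normalization, without the trend, with array weights, the block or averaged probe sets, with any array removed and without wild-type 3 and transgenic 3, and 2 fell after median scaling. Of other transporters 3 rose with array weights, 2 with the block, 3 without wild-type 3 and transgenic 3 and 1 to 4 with single arrays removed, and 1 fell without both and 0 to 1 with single arrays removed. Regulators that rose numbered 4 after median scaling, 3 without the trend and 3 to 7 with single arrays removed, and 0 fell without a filter, after quantile normalization or without the trend, and 0 to 1 with single arrays removed. With probe sets averaged, Fabp3 minus Cd36 was 0.25 and Fabp3 minus Lpl 0.49. The causes were not tested.

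Deviations of same-numbered arrays from their genotype means correlated at 0.070, -0.077 and -0.022, and 1 of the 3 wild-type arrays correlated best with its own number. With so few arrays these values cannot decide whether equal numbers pair animals. With the replicate number as a block, 2744 probe sets and 1479 genes were called, Slc27a1 passed (0.74, limma adjusted p = 0.0326), and 4 members rose and 1 fell.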
